A study of Mus musculus with 232 samples.

Results

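The Nodal and TGF-beta signalling genes examined here are 10 genes of 1 pathway, chosen by name: the ligand Nodal, its antagonists Lefty1 and Lefty2, its co-receptor Tdgf1, the receptors Acvr1b, Acvr2b and Tgfbr1, and the signal transducers Smad2, Smad3 and Smad4. They are 10 of the 42493 genes listed in the deposited files, and all 10 had a mean count of at least 5 per cell, as did 11178 genes in all. They were followed across 4 groups of single mouse embryonic stem cells (mESCs), which are cell lines grown from the early embryo. All groups were grown in medium with fetal bovine serum, LIF and 2i, the inhibitors PD0325901 and CHIR99021. Dgcr8-/- cells lack the Dgcr8 protein that most miRNAs need to mature, and were mock-transfected, that is treated with the transfection reagent and no mimic. The miR-294 cells and the let-7 cells were the same Dgcr8-/- cells given a mimic (a synthetic miRNA) of miR-294 or of let-7, and the WT cells (V6.5 in the titles) carried intact Dgcr8. The study's methods do not say whether the WT cells were also mock-transfected. Cells were captured 24 h after transfection on a microfluidic chip, and each condition had a chip of its own, so a difference between chips cannot be told apart from one between conditions. The sample titles call the let-7 mimic let-7i, the series text calls it let-7b and the study's methods name let-7c, and it is called let-7 below.

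Nodal is a secreted ligand of the TGF-beta family that binds type II receptors such as Acvr2b together with a type I receptor such as Acvr1b, with Tdgf1 (Cripto) as co-receptor. The activated receptor phosphorylates Smad2 and Smad3, which enter the nucleus with Smad4. In the early embryo and in mESCs, Nodal, Lefty1 and Lefty2 are themselves induced by this signal, and the Lefty proteins block it from outside the cell. Tgfbr1 is the type I receptor for the TGF-beta ligands and feeds the same Smads.

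The mimics differ in their seed, bases 2 to 8 of the miRNA, which pairs with sites in the 3′ UTRs of target mRNAs. The mature sequences below (RefSeq, GRCm38.p6) are shown so that the seeds, in capitals, can be set against the sites printed after them. miR-294 shares its seed with miR-291a and miR-295, and the 3 let-7 forms named in the sources share theirs, so that the conflict over the name does not change the seed.
mmu-miR-294-3p: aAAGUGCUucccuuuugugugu
mmu-miR-291a-3p: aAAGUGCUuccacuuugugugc
mmu-miR-295-3p: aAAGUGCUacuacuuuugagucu
mmu-let-7b-5p: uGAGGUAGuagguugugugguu
mmu-let-7c-5p: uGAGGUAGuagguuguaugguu
mmu-let-7i-5p: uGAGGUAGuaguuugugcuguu

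Seed matches were searched on the transcript strand in the longest annotated 3′ UTR of each gene (Gencode M21, GRCm38). The search letters for miR-294 were AGCACTT and GCACTTA, and those for let-7 were CTACCTC and TACCTCA. Within a pair, the letters overlap, and a site that holds both is an 8-base match. For miR-294, 4 of the 10 genes held a match (Lefty1, Lefty2, Smad2 and Tgfbr1), against 21.4% of the 10283 tested genes with an annotated 3′ UTR. Lefty1 and Lefty2 were the members with an 8-base match, which 3.74% of tested genes held. For let-7, 4 of the 10 held a match (Acvr1b, Acvr2b, Smad2 and Tgfbr1), against 17% of tested genes. Tgfbr1 alone of them held an 8-base match, which 3.63% of tested genes held. The median 3′ UTR was 1412 bases long among the 10 genes and 1188 among tested genes. One site per gene and miRNA is printed with the match in capitals for 5 of these genes, the 8-base match where there is one, and Smad2 is given by counts.
Lefty1, miR-294 match, 3′ UTR, chr1:180938205-180938228, + strand: gtatgcgaAGCACTTAcatgtata
Lefty2, miR-294 match, 3′ UTR, chr1:180897909-180897932, + strand: ccagtttaAGCACTTAcatgggta
Tgfbr1, miR-294 match, 3′ UTR, chr4:47411111-47411133, + strand: ctaaatgaAGCACTTctgatttt
Tgfbr1, let-7 match, 3′ UTR, chr4:47410835-47410858, + strand: tggttgttCTACCTCActgagaga
Acvr1b, let-7 match, 3′ UTR, chr15:101210928-101210950, + strand: gtggaggcCTACCTCttgtttct
Acvr2b, let-7 match, 3′ UTR, chr9:119434865-119434887, + strand: accagaaaTACCTCAgaattttc

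The Lefty1 match began 238 bases into a 3′ UTR of 425 bases, and of the 836 other tested genes with a 3′ UTR within 20% of that length 1.56% held an 8-base miR-294 match. The Lefty2 match lay in a 3′ UTR of 1290 bases, and 2.54% of 1499 genes of like length held one. Smad2, whose 3′ UTR of 6233 bases is the longest of the 10, had 3 miR-294 and 2 let-7 matches of 7 bases, and 65.7% and 51.8% of the 359 genes of like length held at least 1 match of either kind. The 3′ UTR of Tgfbr1 was 4154 bases long, and 7.86% of 878 genes of like length held an 8-base let-7 match. At least 1 miR-294 or let-7 match was held by 46.4% and 37.1% of those genes. For Acvr1b and Acvr2b, 28.7% and 16.6% of genes of like length held a let-7 match. None of the search letters occurred in the annotated 3′ UTRs of Nodal, Tdgf1, Smad3 or Smad4. A match is a description of the sequence and does not show that the miRNA acts there.

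**Figure D1:**
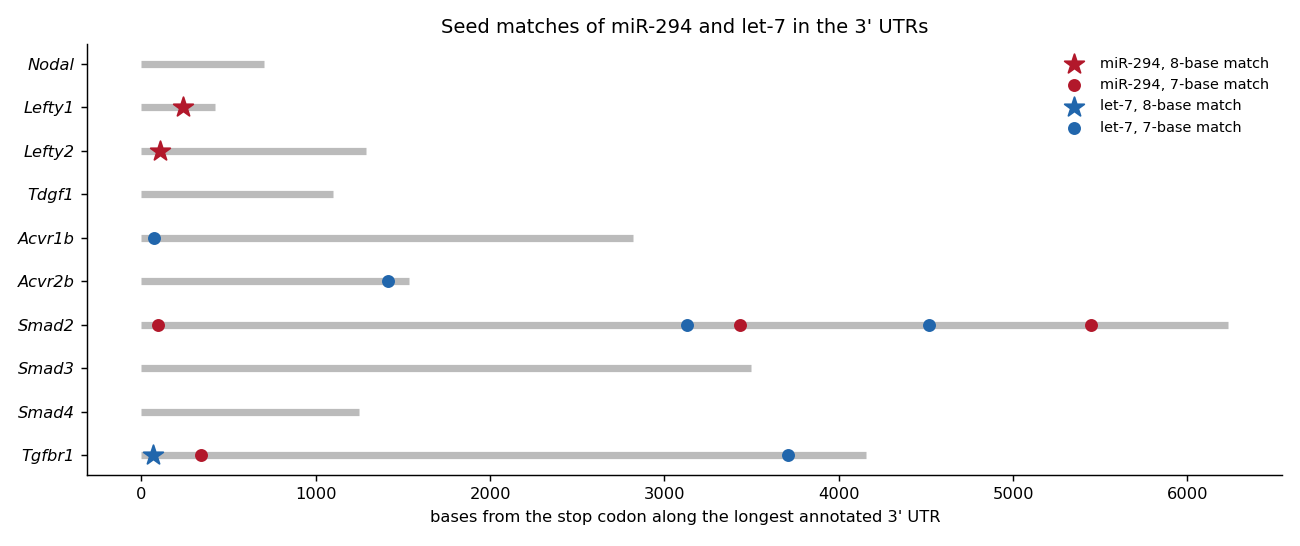
Position of the seed matches along the longest annotated 3′ UTR of each gene (x axis, bases from the stop codon). Grey bars give the length of the 3′ UTR, stars mark 8-base matches and circles 7-base matches, in red for miR-294 and in blue for let-7. The 8-base miR-294 matches lie in Lefty1 and Lefty2 and the 8-base let-7 match lies in Tgfbr1.

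The files used here hold 232 runs of 182 cells, those left by the study's filters. In 4 cases, 2 neighbouring cell numbers of 1 group had counts as alike as repeat runs of a single cell, and each pair was counted as 1 cell. This left 60 Dgcr8-/-, 16 WT, 45 let-7 and 57 miR-294 cells, with totals of 513521 to 3979274 counts per cell. The titles of the miR-294 cells have 2 forms, miRNA294_ for 54 cells and MIR_294_ for 3. In WT cell 32 and let-7 cell 41 the 2 runs held unlike counts. Without let-7 cell 41 no let-7 ratio of the 10 genes moved by more than 0.05 on the log2 scale. Without WT cell 32, the log2 ratios of Dgcr8-/- against WT cells went from 0.79 to 0.61 for Nodal, from 1.54 to 1.36 for Lefty1, from -0.78 to -0.96 for Lefty2, from -1.33 to -1.51 for Acvr1b, from 3.05 to 2.87 for Smad3 and from -0.40 to -0.57 for Smad4. Acvr2b and Tgfbr1 moved farther and are given with these genes below, and Tdgf1 and Smad2 moved by less than 0.05. The labels name no separate cultures, so each group was 1 sample. For that reason no p-value was computed, and the intervals below cover counting error only, not the spread between cultures or chips. Cells of a group were summed, and levels are CPM, counts scaled to a common total. A ratio counted as past 2-fold when it was at least 2-fold in either direction. The transfected cells had been kept by the study partly because targets of their mimic, from earlier arrays, were low in them. That target list holds Lefty1, Lefty2 and Smad2 for miR-294 and Acvr1b for let-7, so these 4 genes had a part in the choice of cells.

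All 11 markers of naive pluripotent stem cells were counted in every group, as the label mESC requires. Their summed level was 3332 CPM in Dgcr8-/-, 3535 in WT, 3904 in miR-294 and 1859 in let-7 cells. Single let-7 cells spanned 190 to 5913 CPM for this list, with a median of 1626. Single Dgcr8-/- cells spanned 741 to 5589 CPM, with a median of 3504. Dgcr8-/- cells 18 and 3, which are named again below, stood at 741 and 1147 CPM. The part of these spreads in the results was not tested. Of 6 fibroblast feeder markers, 1 to 3 were counted in any group (summed level 0.0818 to 6.61 CPM, with 1 let-7 cell at 219), and Col1a2, Col3a1 and Lum were at 0 in all 4 groups. Of 6 primitive endoderm markers, 0 to 3 were counted in any group (0 to 8.33 CPM), with Gata6 and Sox17 at 0 throughout. Primed epiblast markers were counted at 43.6 to 239 CPM, highest in WT cells, where Dnmt3b alone stood at 236 CPM. Of these, Otx2 and Pou3f1 were at 0 in WT cells and Fgf5 in let-7 and miR-294 cells. Primitive streak markers (18.3 to 75.2 CPM) were also highest in WT, where Eomes stood at 57.5, and Foxa2 was at 0 in all groups but miR-294. Trophoblast markers stood at 3.99 to 8.75 CPM. Reads of Dgcr8 itself, at 35.2 CPM in Dgcr8-/- and 118 in WT cells, can come from exons outside the deletion and do not check it.

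Levels of the 10 genes differed widely on a per-length scale. In Dgcr8-/- cells the mean FPKM (a level scaled for gene length and depth) was 533 for Tdgf1, 103.8 for Lefty1, 31 for Nodal and 23.5 for Lefty2. The median FPKM of these genes was 527, 14.7, 14 and 7.89 in the same order, so that Lefty1 and Nodal were close by median. The levels that follow are means. Among the transducers, Smad2 stood at 15.1, Smad4 at 9.81 and Smad3 at 5.27. The receptors were lowest, with Tgfbr1 at 4.50, Acvr2b at 1.99 and Acvr1b at 0.980 FPKM. Tdgf1 was the most even of the genes over cells, and the others were counted in bursts, with many cells at or near 0 and a few far above the rest.

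**Figure D2:**
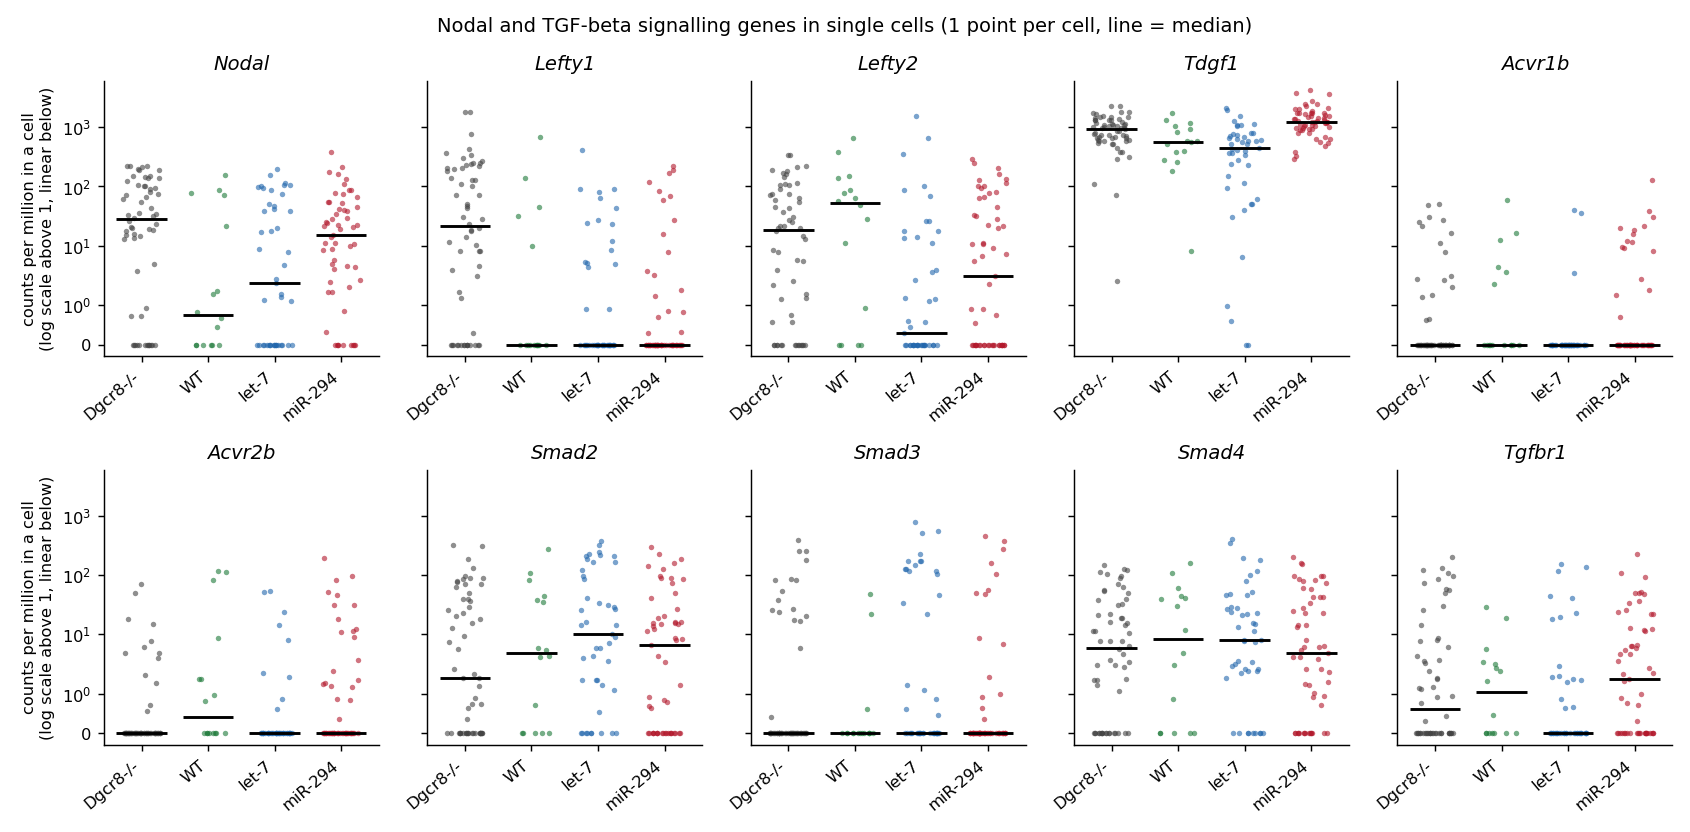
CPM of each gene in each cell (y axis, logarithmic above 1 and linear below), by group; each point is a cell and each black line the median of a group. Tdgf1 lies highest in all groups, while Lefty1 has a median of 0 in the WT, let-7 and miR-294 groups and of 21.5 in Dgcr8-/- cells.

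Lefty1, an inhibitor of Nodal, was the member with the widest gap between mock and mimic-treated cells. Among Dgcr8-/- cells it ran from 0 to 1828 CPM with a median of 21.5. In WT cells it ran from 0 to 682 CPM with a median of 0. In let-7 and miR-294 cells its median was also 0, and the highest cells had 419 and 218 CPM. Most cells of the WT, let-7 and miR-294 groups therefore held no Lefty1 count, although the ranges of all groups overlapped. It was counted in 45 of 60 Dgcr8-/- cells (75%, exact 95% interval 62.1 to 85.3), 19 of 57 miR-294 cells (33.3%, 21.4 to 47.1), 17 of 45 let-7 cells (37.8%, 23.8 to 53.5) and 5 of 16 WT cells (31.2%, 11 to 58.7). With each cell thinned to 500000 counts the shares were 71.7%, 28.1%, 35.6% and 31.2% in the same order, a gap of like width.

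From the summed counts, Lefty1 stood at 154 CPM in Dgcr8-/-, 52.8 in WT, 15.8 in let-7 and 15.7 in miR-294 cells. The log2 ratio to Dgcr8-/- cells was -3.29 for miR-294 (counting interval -3.36 to -3.21), a level 9.76-fold lower. For let-7 it was -3.28 (-3.37 to -3.20), or 9.72-fold lower, although the letters of the let-7 seed match were not found in its 3′ UTR. Both comparisons share the same Dgcr8-/- cells, of which cells 10 and 5 stood highest, at 1828 and 1785 CPM. Cell 10 held 20.6% of the Dgcr8-/- counts of Lefty1, and the 6 cells with the most counts held 63.1%. In miR-294 cells the top 6 held 87.4%, and in let-7 cells the top 5 held 78.1%. Ratios without both of Dgcr8-/- cells 10 and 5 were not computed. Without the 3 miR-294 cells titled MIR_294_, the miR-294 ratio was -3.445 on the log2 scale. Against WT, Lefty1 was 2.91-fold higher in Dgcr8-/- cells (log2 1.54, 1.46 to 1.62), a figure that 1 cell set in large part. WT cell 51 held 77.3% of the WT counts of Lefty1, and without it the Dgcr8-/- level was 12.1-fold higher (log2 3.59). Leaving out let-7 cell 80, which held 37.6% of the let-7 counts, widened the let-7 gap from 9.72-fold to 15.4-fold.

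Lefty2, which neighbours Lefty1 on chromosome 1 (180893108 to 180899103, + strand, against 180935022 to 180938400 for Lefty1) and encodes a related Nodal inhibitor, did not show the same gap in its summed level. Dgcr8-/- cells ran from 0 to 337 CPM with a median of 18.8. WT cells ran from 0 to 655 CPM with a median of 52.5. The miR-294 cells ran from 0 to 288 CPM with a median of 3.11, and the let-7 cells from 0 to 1529 with a median of 0.288. Typical mimic-treated cells thus held less Lefty2 than typical mock cells, while the upper ends overlapped and the highest cell of all was a let-7 cell. The share of cells with a count was 76.7% in Dgcr8-/- (64 to 86.6), 75% in WT (47.6 to 92.7), 59.6% in miR-294 (45.8 to 72.4) and 51.1% in let-7 cells (35.8 to 66.3).

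The summed level of Lefty2 was 58.1 CPM in Dgcr8-/-, 99.6 in WT, 53.4 in let-7 and 42.7 in miR-294 cells. No ratio was past 2-fold: -0.44 (-0.50 to -0.39) on the log2 scale for miR-294, -0.12 (-0.18 to -0.06) for let-7 and -0.78 (-0.85 to -0.71) for Dgcr8-/- against WT. Let-7 cell 80, the highest for both Lefty genes, held 40.6% of the let-7 counts of Lefty2, and without it the let-7 level was 1.81-fold below that of Dgcr8-/- cells (log2 -0.85); without Dgcr8-/- cell 29 the direction turned (log2 0.09), as it did with every cell weighted alike (log2 0.28). Among cells with 2 runs, the let-7 level was lower and past 2-fold (log2 -2.19). Without WT cell 92, the level in WT was close to that in Dgcr8-/- cells (log2 -0.07).

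The pair shared 443 of their 31-base stretches, 25.7% of those in Lefty1 transcripts and 17.2% of those in Lefty2, and RSEM divides reads that fit both genes by estimate. Cells with counts of one gene and none of the other were still common. Of the Dgcr8-/- cells 40 of 60 held both genes, 5 held Lefty1 alone and 6 Lefty2 alone. In miR-294 cells 14 of 57 held both, 5 Lefty1 alone and 20 Lefty2 alone. In let-7 cells these counts were 10, 7 and 13 of 45, and in WT cells 5, 0 and 7 of 16. Cells with Lefty2 alone thus outnumbered cells with Lefty1 alone most clearly in miR-294 and WT cells. When at least 5 counts were asked for, Lefty1 alone and Lefty2 alone were at 2 and 21 in miR-294, 0 and 6 in WT, 7 and 7 in let-7 and 9 and 7 in Dgcr8-/- cells. Across cells within a group, the Spearman correlation of Lefty1 with Lefty2 was 0.575 in Dgcr8-/- (60 cells), 0.78 in WT (16), 0.29 in let-7 (45) and 0.22 in miR-294 cells (57). The points of a group share a chip, and the shared sequence bears on these values.

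**Figure D3:**
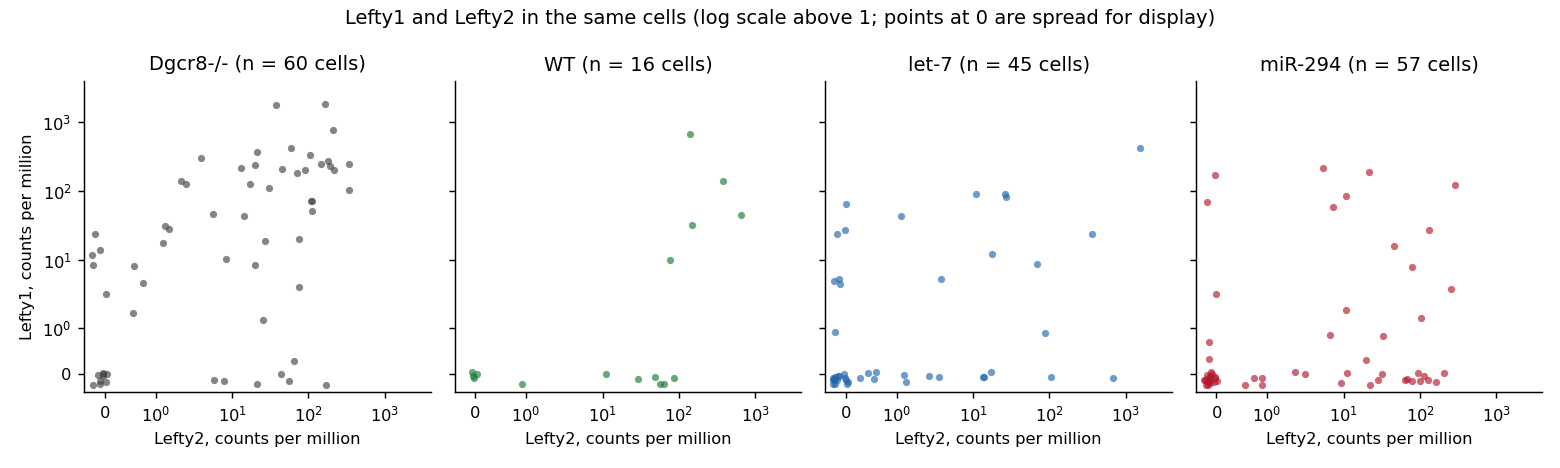
Lefty1 (y axis) against Lefty2 (x axis) in the same cells, in CPM on axes that are logarithmic above 1, with 1 panel per group and 1 point per cell (points at 0 are spread slightly for display). In Dgcr8-/- cells 40 of 60 cells lie above 0 on both axes, against 14 of 57 miR-294 cells, where 20 cells hold Lefty2 with no Lefty1.

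Nodal, the ligand of the pathway (chromosome 10, 61417972 to 61425338, + strand), was highest in Dgcr8-/- cells by its sum and by its median. There it ran from 0 to 224 CPM with a median of 28.1. In miR-294 cells it ran from 0 to 384 CPM with a median of 14.9. In let-7 cells it ran from 0 to 196 with a median of 2.34, and in WT cells from 0 to 157 with a median of 0.754. The ranges overlapped fully, and cells at 0 occurred in each group. The share of cells with a count was 78.3% in Dgcr8-/- (65.8 to 87.9), 84.2% in miR-294 (72.1 to 92.5), 60% in let-7 (44.3 to 74.3) and 62.5% in WT cells (35.4 to 84.8). The intervals of the miR-294 and the mock share overlapped, while the median of the miR-294 cells was lower.

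Its summed level was 62.1 CPM in Dgcr8-/-, 43.7 in miR-294, 36 in WT and 32 in let-7 cells. The log2 ratio was -0.51 (-0.56 to -0.45) for miR-294, -0.96 (-1.02 to -0.89) for let-7 and 0.79 (0.69 to 0.89) for Dgcr8-/- against WT, none of them past 2-fold. The let-7 ratio lay near that line, and with single cells left out it ranged from -1.13 to -0.85, the 2-fold line being crossed without any of 10 cells. With miR-294, the ratio was past 2-fold in cells with 1 run (log2 -1.06) and was -0.11 in cells with 2 runs. WT cell 80 held 58.2% of the WT counts of Nodal, and without it Nodal was 3.58-fold higher in Dgcr8-/- than in WT cells (log2 1.84). Of the 60 Dgcr8-/- cells, 42 held Nodal together with at least 1 Lefty gene, 5 held Nodal alone of the 3, and 4 held none. In miR-294 cells 34 of 57 held Nodal with a Lefty gene and 14 held Nodal alone. In let-7 cells the same counts were 16 and 11 of 45.

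**Figure D4:**
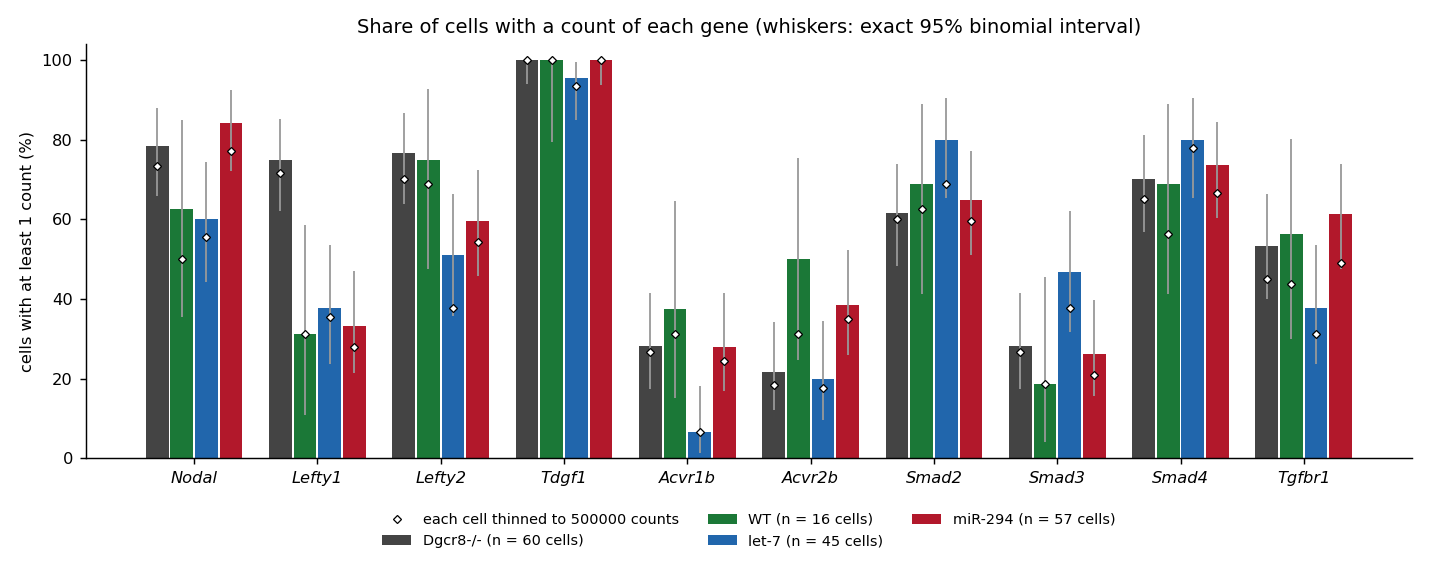
Share of cells with at least 1 count of each gene (y axis, percent) in the 4 groups, with exact 95% binomial intervals as whiskers. Diamonds show the share after each cell was thinned to 500000 counts; for Lefty1 the bars are at 75% in Dgcr8-/- cells and at 31.2 to 37.8% in the other groups.

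Tdgf1 (Cripto), the co-receptor of Nodal and a gene typical of mESCs, was the member counted most evenly. In Dgcr8-/- cells it ran from 2.51 to 2291 CPM with a median of 949. The miR-294 cells ran from 287 to 4216 CPM with a median of 1234. WT cells ran from 8.25 to 1701 with a median of 566, and let-7 cells from 0 to 2105 with a median of 448. No miR-294 cell lay below 287 CPM, and 43 of 45 let-7 cells and all cells of the other groups held a count. The range between the quartiles was 933 to 1708 CPM in miR-294 and 116 to 740 in let-7 cells, the only pair of groups in which these ranges were separate for any member.

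The summed level of Tdgf1 was 1399 CPM in miR-294, 945 in Dgcr8-/-, 728 in WT and 575 in let-7 cells. Against Dgcr8-/- cells it was 1.48-fold higher with miR-294 (log2 0.57, 0.55 to 0.58) and 1.64-fold lower with let-7 (log2 -0.72, -0.73 to -0.70). Neither ratio was past 2-fold, and both kept their direction under every alternative tried, as did the 1.30-fold higher level in Dgcr8-/- than in WT cells. A pseudogene, Tdgf1-ps1, shared 12.5% of the 31-base stretches of Tdgf1 and stood at 12.1 to 25.5 CPM after RSEM had divided the shared reads. How far that division moved Tdgf1 was not tested. In let-7 cells, where naive markers were lower in sum, the Spearman correlation of Tdgf1 with the summed naive markers was 0.17 over 45 cells.

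Among the receptors, Acvr2b, a type II receptor for Nodal and activin, differed most. It was counted in at most 50% of the cells of a group, with a median of 0 in Dgcr8-/-, let-7 and miR-294 cells and of 0.412 CPM in WT cells. The highest cells had 70.7 CPM in Dgcr8-/-, 54.9 in let-7, 118 in WT and 196 in miR-294 cells. It was counted in 21.7% of Dgcr8-/- cells (12.1 to 34.2), 20% of let-7 cells (9.58 to 34.6), 38.6% of miR-294 cells (26 to 52.4) and 50% of WT cells (24.7 to 75.3). WT and miR-294 cells thus held the higher values, with overlap between all groups. The summed level was 2.69 CPM in Dgcr8-/-, 2.73 in let-7, 12.3 in miR-294 and 21.9 in WT cells. With miR-294 it was 4.57-fold higher than in Dgcr8-/- cells (log2 2.19, 2.00 to 2.38), and in Dgcr8-/- cells it was 8.16-fold lower than in WT (log2 -3.03, -3.24 to -2.82). These ratios rested on few cells: leaving out miR-294 cell 79 or Dgcr8-/- cell 69 gave 2.85-fold and 7.57-fold for miR-294. Against WT, 13.5-fold was obtained without Dgcr8-/- cell 69 and 5.07-fold without WT cell 32, which is the WT cell with unlike runs. In miR-294 and Dgcr8-/- cells with 1 run alone, the ratio was not past 2-fold (log2 0.75). With let-7, for which its 3′ UTR holds a 7-base match, the log2 ratio was 0.02 (-0.25 to 0.29), and -0.54 to 0.75 with single cells left out. Its direction was kept in 5 of 12 alternatives, and in cells with 2 runs it was lower with let-7 (log2 -2.89).

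Acvr1b, the type I receptor of Nodal and activin, had the lowest mean FPKM of the members in Dgcr8-/- (0.980), let-7 (0.403) and miR-294 cells (1.36), and in WT cells (1.41) Smad3 was lower (0.903). It was counted in 17 of 60 Dgcr8-/- cells (28.3%, 17.5 to 41.4), 16 of 57 miR-294 cells, 6 of 16 WT cells and 3 of 45 let-7 cells (6.67%, 1.40 to 18.3), and its median was 0 in all groups. The summed level was 4.03 CPM in Dgcr8-/-, 5.48 in miR-294, 10.1 in WT and 1.53 in let-7 cells. With let-7 it was 2.63-fold lower than in Dgcr8-/- cells (log2 -1.39, -1.71 to -1.09), in a gene that holds a 7-base let-7 match and that was on the target list used to keep let-7 cells. That ratio was 1.96-fold without Dgcr8-/- cell 15, and 6.26-fold and 4.03-fold without let-7 cells 1 and 4. It was also under 2-fold from first runs (log2 -0.91) and in cells with 1 run (log2 -0.31). Against WT it was 2.51-fold lower in Dgcr8-/- cells (log2 -1.33, -1.56 to -1.10), but WT cell 80 held 76.6% of the WT counts, and without it the direction turned (log2 0.56). With every cell weighted alike the log2 ratio was -0.53. With miR-294 the ratio was 1.36-fold, not past 2-fold.

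Tgfbr1, the type I receptor for TGF-beta, ran from 0 to 201 CPM in Dgcr8-/- cells with a median of 0.604, and from 0 to 29.1 in WT cells with a median of 1.05. Its median was 1.78 in miR-294 and 0 in let-7 cells, where the highest cells had 227 and 156 CPM. The summed level was 16.6 CPM in Dgcr8-/-, 15.3 in miR-294, 10.9 in let-7 and 5.03 in WT cells. Only the WT comparison was past 2-fold, with Dgcr8-/- cells 3.30-fold higher (log2 1.72, 1.46 to 2.00), and 5.33-fold higher without WT cell 32. The median and the share of cells with a count (53.3% against 56.2%) did not show that gap, and cells above 29.1 CPM were found in Dgcr8-/- but not in WT cells. In the 2 WT cells with 2 runs, 1 of them cell 32, the direction turned (log2 -0.41). The ratio was -0.11 (-0.21 to -0.01) on the log2 scale for miR-294, turning to 0.15 without Dgcr8-/- cell 79, and -0.60 (-0.72 to -0.48) for let-7, the mimic with an 8-base match in its 3′ UTR. Leaving out let-7 cell 12 or 70 took the let-7 level to 2.11-fold and 2.05-fold below that of Dgcr8-/- cells.

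Smad3, one of the transducers that the receptors phosphorylate, was counted in a minority of cells of every group, some of them at high levels and others near 0. In Dgcr8-/- cells it ran from 0 to 396 CPM, in WT from 0 to 48.7, in miR-294 from 0 to 459 and in let-7 from 0 to 785, with a median of 0 in all 4. The upper quartile was 116 CPM in let-7, 8.71 in Dgcr8-/-, 0.355 in miR-294 and 0 in WT cells, so that the let-7 group held the high cells, with overlap. The share of cells with a count was 46.7% in let-7 (31.7 to 62.1), 28.3% in Dgcr8-/- (17.5 to 41.4), 26.3% in miR-294 (15.5 to 39.7) and 18.8% in WT cells (4.05 to 45.6). The summed level was 77.6 CPM in let-7, 30.8 in miR-294, 29.8 in Dgcr8-/- and 3.6 in WT cells. With let-7 it was 2.60-fold higher than in Dgcr8-/- cells (log2 1.38, 1.32 to 1.44), and past 2-fold with any 1 cell left out (log2 1.02 to 1.92). Against WT it was 8.30-fold higher in Dgcr8-/- cells (log2 3.05, 2.75 to 3.37), where 3 of 16 cells held a count. WT cell 39 held 64.8% of those counts, and without it the ratio was 22.4-fold. With miR-294 the ratio was 1.03-fold, and without miR-294 cell 41, which held 44.2% of the counts, it was 1.69-fold in the other direction (log2 -0.75), as it was in cells with 1 run (log2 -0.36).

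Smad2, the partner of Smad3 in the pathway, was counted in 61.7% of Dgcr8-/- (48.2 to 73.9), 68.8% of WT, 64.9% of miR-294 and 80% of let-7 cells (65.4 to 90.4). It ran from 0 to 319 CPM in Dgcr8-/- cells with a median of 1.83, and from 0 to 378 in let-7 cells with a median of 10.1. The median was 6.71 in miR-294 and 4.91 in WT cells. The summed level was 58.5 CPM in let-7, 39.7 in WT, 33.8 in miR-294 and 28.5 in Dgcr8-/- cells. With let-7 it was 2.05-fold higher than in Dgcr8-/- cells (log2 1.04, 0.97 to 1.10). The ratio lay at the line, between 0.83 and 1.22 on the log2 scale with 1 cell left out, and it was under 2-fold with TMM factors (log2 0.89), and among cells with 2 runs it was reversed (log2 -0.90, 7 let-7 and 23 Dgcr8-/- cells). With miR-294, for which its 3′ UTR holds 3 matches and which it was listed as a target of, the log2 ratio of Smad2 was 0.24 (0.17 to 0.31). Its sign was kept in 10 of 13 alternatives, and it was -0.14 with each cell thinned to 500000 counts. Against WT, the log2 ratio of Dgcr8-/- cells was -0.48 (-0.58 to -0.37), and 0.28 without WT cell 92.

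Smad4, the shared partner of Smad2 and Smad3, varied least among the low-abundance members. The share of cells with a count lay between 68.8% and 80% in the 4 groups, the median between 4.95 and 8.40 CPM, and the highest cell between 146 and 402 CPM. Its summed level was 22 CPM in Dgcr8-/-, 27.9 in miR-294, 29.1 in WT and 39.3 in let-7 cells. No ratio was past 2-fold, the farthest being 1.78-fold higher with let-7 (log2 0.84, 0.76 to 0.92).

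**Figure D5:**
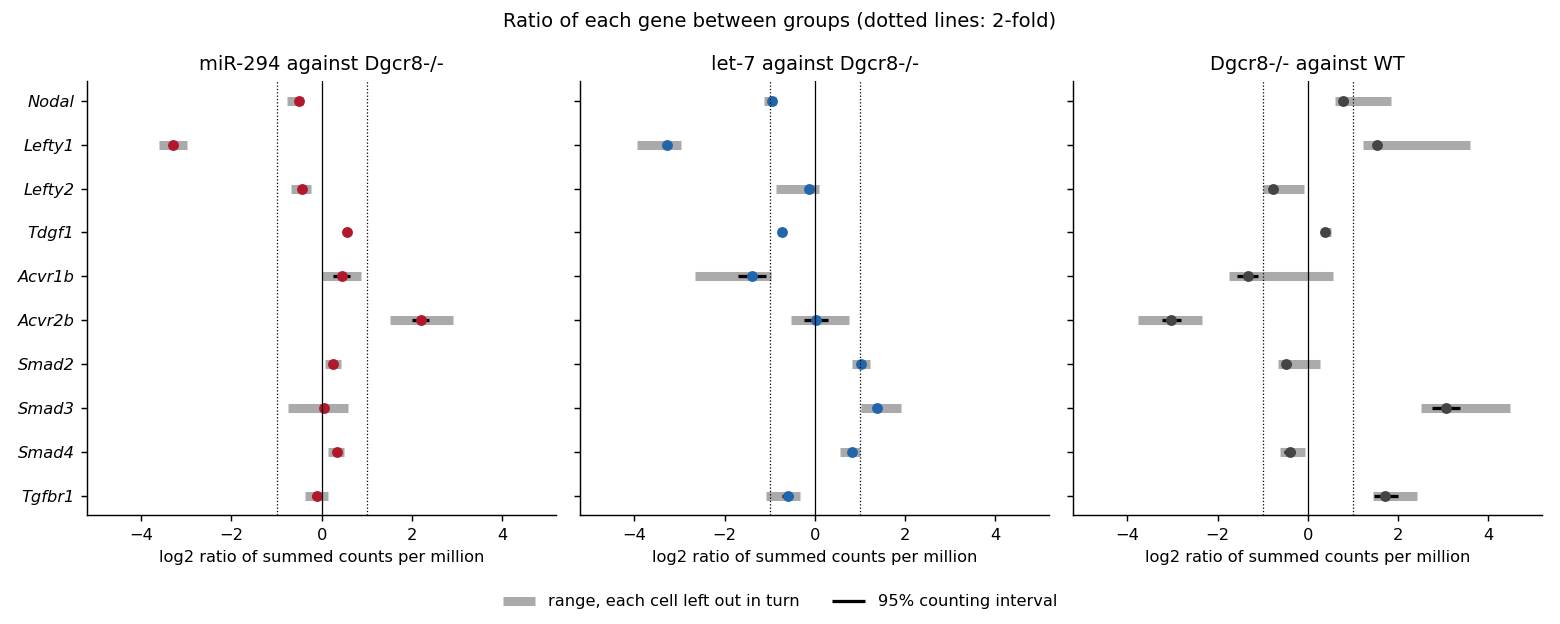
log2 ratio of the summed CPM of each gene (x axis) in the 3 comparisons; points are the ratios, black bars the 95% counting intervals, grey bars the range when each cell is left out in turn, and dotted lines mark 2-fold. Lefty1 lies at -3.29 and -3.28 after miR-294 and let-7, while in the WT comparison, with 16 WT cells, the grey bar of Acvr1b crosses 0 and that of Lefty1 reaches 3.59.

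Counted over the 10 genes, 1 was at least 2-fold lower (Lefty1) and 1 at least 2-fold higher (Acvr2b) with miR-294 than in Dgcr8-/- cells, where 15.4% of the 11178 tested genes were lower and 8.28% higher. With let-7, 2 were lower (Lefty1 and Acvr1b) and 2 higher (Smad2 and Smad3), against 10.3% and 16.7% of tested genes. Against WT, 3 were higher in Dgcr8-/- cells (Lefty1, Smad3 and Tgfbr1) and 2 lower (Acvr1b and Acvr2b), against 28.3% and 12.8% of tested genes. The median log2 ratio of the 10 genes was 0.14, -0.36 and -0.01 in these comparisons, and that of all tested genes -0.06, 0.10 and 0.18. These comparisons share the Dgcr8-/- cells. With TMM factors, which moved every let-7 ratio by -0.15 on the log2 scale, the let-7 counts were 1 higher (Smad3) and 3 lower (Nodal joining).

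Of the 53 other pathway genes on the lists used (ligands, antagonists, processing enzymes, receptors, Smad regulators, targets and the BMP branch), 52 were in the files and 37 were tested. With miR-294, 11 of the 37 were at least 2-fold lower and 2 higher, against 15.4% and 8.28% of all tested genes. Among the lower genes were the Smad regulators Skil (90.2 CPM against 206 in Dgcr8-/- cells), which holds back Smad-driven transcription, and Smurf1 (4 against 22.1), a ubiquitin ligase for Smads and receptors. Trim33 (32.4 against 84.2) and Foxh1 (46.7 against 105), both nuclear partners of Smads, were also lower, but in cells with 1 run their log2 ratios were -0.95 and -0.81 and that of Foxh1 was -0.90 with every cell weighted alike. So were the Nodal target Mixl1 (4.32 CPM against 13.7), the ligand Gdf11 (4.54 against 13.2) and the BMP target Id1 (15.0 against 51.9). Tgfbr2, the type II receptor for TGF-beta, was at 0.0202 CPM (1 cell) against 8.21 in 7 Dgcr8-/- cells, a log2 ratio of -8.67 (-11.72 to -6.81). The BMP receptor Acvr1 (3.43 against 11.3) and the antagonist Dand5 (2.24 against 5.48) rested on Dgcr8-/- cell 3: without it their log2 ratios were -0.33 and 1.36. Higher were the BMP transducer Smad5 (25.1 against 10.7) and the activin antagonist Fst (12.1 against 5.16), the latter with a log2 ratio of 0.43 without miR-294 cell 11 and 0.90 without cell 25. Leaving out miR-294 cell 44 gave 7.18-fold for Gdf11 and 7.01-fold for Acvr1, cell 33 gave 8.56-fold for Smurf1, cell 96 gave 10.1-fold for Dand5 and Dgcr8-/- cell 75 gave 4.4-fold for Fst. Tgfbr2 was 154-fold lower without Dgcr8-/- cell 77. Without miR-294 cell 31, which held the only miR-294 counts, Tgfbr2 was at least 263-fold lower, with the sum set to 3 counts.

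With let-7, 7 of the 37 were at least 2-fold higher and 3 lower, shares near the 16.7% and 10.3% of all tested genes. The BMP targets Id1 (263 CPM against 51.9), Id2 (267 against 89) and Id3 (773 against 188), inhibitors of bHLH factors, were all higher, at log2 ratios of 2.34, 1.59 and 2.04, that of Id2 being 0.04 in cells with 2 runs. Tgfb2, a TGF-beta ligand, was counted in 19 of 45 let-7 cells and 6 of 60 Dgcr8-/- cells, at 25.1 against 1.89 CPM. Fst (15.6 against 5.16), Zfyve9 (SARA, a Smad anchor, 15.4 against 4.72) and Smad5 (23.4 against 10.7) were also higher, the log2 ratio of Smad5 being 0.46 without let-7 cell 85, 0.86 without cell 28 and 1.00 without cell 70. Lower were Pcsk6, which cleaves the Nodal precursor (10.5 against 41.2), the co-receptor Tgfbr3 (1 count, 0.0137 against 26.6 CPM, log2 -10.92, -16.23 to -8.45) and Bmp4 (1.29 against 4.95), the last at a log2 ratio of -0.87 without Dgcr8-/- cell 12 and -3.19 without let-7 cell 3. Without Dgcr8-/- cell 18, Tgfb2 was 28-fold higher, and without Dgcr8-/- cell 75 Fst was 5.69-fold higher. For Tgfbr3, leaving out let-7 cell 1, which held its only count, gave a bound of at least 633-fold lower. Over pairs of a let-7 and a Dgcr8-/- cell, with ties shared, the let-7 cell was the higher in 87.3% (Id1), 80.9% (Id2) and 83.5% (Id3). The share was 66.5% for Tgfb2, 67.5% for Fst, 58.8% for Zfyve9 and 47.3% for Smad5. Among the lower genes it was 29.6% for Pcsk6, 40.9% for Tgfbr3 and 49.5% for Bmp4.

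In Dgcr8-/- against WT cells, 11 of the 37 were at least 2-fold higher and 5 lower, shares near the 28.3% and 12.8% of all tested genes. Id1 (51.9 against 9.36 CPM), Id2 (89 against 34.1), Skil (206 against 94.4), Smurf1 (22.1 against 6.30), Smurf2 (32.1 against 12.1), Zfyve9 (4.72 against 0.899) and Pmepa1 (10.1 against 4.33) were higher. Skil was under 2-fold in 5 of 13 alternatives (lowest log2 ratio 0.66), and Id2 had a log2 ratio of 0.26 in cells with 1 run. Tgfb2, Dand5, Acvr1 and Tgfbr2 were higher too, each counted in 6 to 8 of 60 Dgcr8-/- cells and 0 to 3 of 16 WT cells. Pairs of a Dgcr8-/- and a WT cell were also compared, with ties shared. The Dgcr8-/- cell was the higher in 46.7% of pairs for Acvr1, 53.6% for Dand5, 52.1% for Tgfb2 and 55.8% for Tgfbr2. For Tgfbr2, at 0 in WT, the level was at least 66.9-fold higher, with the WT sum set to 3 counts. Pmepa1, a Smad target, had a log2 ratio of 0.98 without Dgcr8-/- cell 29, 2.39 without WT cell 25 and 0.17 in cells with 1 run. Single cells moved other folds as well: without Dgcr8-/- cell 3, Acvr1 was 3.39-fold and Dand5 4.27-fold higher, and without Dgcr8-/- cell 77 Tgfbr2 was at least 25.3-fold higher. Tgfb2 was 4.38-fold higher without Dgcr8-/- cell 18 and 14.6-fold without WT cell 95. Leaving out WT cells 96, 77, 51, 43 and 90 raised Acvr1 to 23.9-fold, Dand5 to 42.8-fold, Smurf1 to 7.47-fold, Smurf2 to 3.97-fold and Zfyve9 to 9.07-fold. Lower were the mesendoderm factor Eomes (11.2 against 57.5), Bmp4 (4.95 against 20.2), Smad1 (11.5 against 25.7), Smad5 (10.7 against 23.5) and Tgfbr3 (26.6 against 54.4). The last 3 lost the 2-fold call with single cells left out, to log2 ratios of -0.04 (Smad1, WT cell 31), -0.16 (Smad5, WT cell 37) and -0.72 (Tgfbr3, WT cell 39). The call was also lost without WT cell 25 (Smad1, -0.87) or 51 (Smad5, -0.67), and for Tgfbr3 without any of 13 single cells. Bmp4 was 8.55-fold lower without Dgcr8-/- cell 12.

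Repeat runs showed how far a single count can be trusted. In the 48 cells whose 2 runs were alike, Nodal was counted in both runs of 39 cells, in 1 run of 1 cell and in neither run of 8. Lefty1 was counted in both runs of 21 cells and in 1 run of 4, with at most 3 counts where it was missed once. The cells that differed between runs numbered 0 (Tdgf1) to 6 (Lefty2 and Tgfbr1) for the 10 genes. The Spearman correlation of counts between runs lay between 0.85 and 0.98. Both runs sequence the same amplified cDNA, so that losses before amplification were not measured here.

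Across the 60 Dgcr8-/- cells, members other than the Lefty pair were weakly related. The remaining correlations among the 7 members counted in at least 50% of the cells lay between -0.15 (Nodal with Smad4) and 0.29 (Nodal with Lefty1). The genes most alike to each of these members over the same cells, by Spearman correlation of CPM, were Lefty2 for Lefty1 (0.575) with Atp5d (0.51) and Csnk2a1 (0.50), and Ppif (0.48) and Isyna1 (0.43) after Lefty1 for Lefty2. For Nodal they were Idh2 (0.50), Ubxn1 (0.48) and Amdhd2 (0.48). For Tdgf1 they were its pseudogene Tdgf1-ps1 (0.69), Aasdhppt (0.55) and Prdx1 (0.52). For Smad2 they were Leprotl1 (0.51), Eral1 (0.49) and Nusap1 (0.47), for Smad4 Gm45902 (0.47), Slc25a13 (0.45) and Commd6 (0.45), and for Tgfbr1 Gm20498 (0.45), Usp34 (0.44) and Actn1 (0.43). Outside the Lefty pair and the Tdgf1 pseudogene, these were weak likenesses picked from many genes. For the 3 genes most like Nodal, the correlation in the miR-294 cells lay between -0.30 and -0.15.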

How the data were processed

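Single cells were captured with the Fluidigm C1 system 24 h after transfection, amplified and sequenced. The authors aligned reads to Gencode M4 transcripts with RSEM 1.2.19 and deposited, for each run, an expected count per gene, not normalized, and an FPKM. Per the study's methods, multi-cell and dead sites, shallow cells and transfected cells without low targets had been removed, and no further cell filter was applied. The 10 genes and all lists were chosen with earlier results of these data known.

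For each cell, the expected counts of its runs were added up and then rounded. Alikeness of cells and runs was measured by chi-square per gene: runs of 48 cells gave 1.27 to 6.19, 4 pairs of cells gave 1.82 to 5.42 and were averaged into 1 cell each, and the next pair gave 35.4. The threshold of 10 was set after seeing these values. In 2 cells the runs gave 98.3 and 179, and both cells were kept. Counts were then summed by group, with totals of 24459381 (WT), 73024074 (let-7), 99221096 (miR-294) and 104632008 (Dgcr8-/-). Ratios have exact conditional binomial intervals, sums exact Poisson intervals and shares of cells Clopper-Pearson intervals, at 95%. These cover counting error only, as reads carried no molecular identifiers. Ratios were set against the 2-fold line for genes averaging 5 or more counts per cell, and genes with 3 or fewer counts in both groups got no ratio. FPKM served for levels between genes. Named genes were all 10 members, other pathway genes past 2-fold and the 3 genes most alike to each member. Of the other pathway genes, 1 is not reported here. Alternatives were TMM factors (edgeR 4.0.16), DESeq size factors (DESeq2 1.42.0), means over cells, first runs, cells by number of runs, thinning, other filters and folds, and each cell left out. Cells titled MIR_294_, and separately those with unlike runs, were also left out. Ratios and intervals were tested on simulated data. Python 3.11.15, scipy 1.17.1 and R 4.3.3 were used.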

Additional observations from a re-analysis of the deposited data

How the results depend on the processing

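No paired analysis was possible because the replicate numbers in the labels mark sequencing runs of a cell and the groups hold different cells. Of 11 ratios of the 10 genes past 2-fold, the 139 values under the alternatives kept their direction in 136 cases and were past 2-fold in 123. The 19 other ratios kept their direction in 221 of 245 cases. The filters on low counts leave a ratio as it is or drop it, so their values in these totals agree by construction. Lefty1 stayed past 2-fold in all 3 comparisons under every alternative. The number of members past 2-fold with miR-294 went from 2 to 1 with a mean count of at least 20, which dropped Acvr2b. With let-7 it went from 4 to 7 in cells with 2 runs, to 8 at 1.5-fold and to 1 at 3-fold. Against WT it went from 5 to 3 with a mean count of at least 20, which dropped both activin receptors, and to 3 at 3-fold. Called ratios that reversed in cells with 2 runs (log2) were -0.90 for Smad2 and, among other pathway genes, -0.44 for Fst and -1.47 for Smad5 (let-7), -0.74 for Smad5 (miR-294), and -0.41 for Tgfbr1 and 1.34 for Smad5 (WT, 2 WT cells). Ratios not past 2-fold turned there as well: against WT, Smad4 to 3.87, Lefty2 to 1.00 and Nodal to -0.30, with miR-294 Tgfbr1 to 0.74 and Smad2 to -0.06, and with let-7 Acvr2b to -2.89. Other pathway genes under 2-fold in these cells were Acvr1 (-0.57), Dand5 (-0.56), Fst (0.49) and Gdf11 (-0.42) with miR-294 and Smad1 (-0.39) and Tgfbr3 (-0.32) against WT. With each cell left out in turn, Acvr1b against WT ranged from -1.76 to 0.56 and Dand5 with miR-294 from -3.33 to 1.36. The causes were not tested. With at least 5 counts, the share of cells left its interval for Lefty1 in miR-294 (19.3%), Lefty2 in let-7 (33.3%), Acvr1b in Dgcr8-/- (16.7%), Smad4 in miR-294 (57.9%) and Tgfbr1 in Dgcr8-/-, let-7 and miR-294 cells (33.3%, 22.2% and 43.9%). Members with an 8-base match numbered 2 for miR-294 and 1 for let-7, against 3.74% and 3.63% of tested genes. The scaling moved all ratios by -0.15 (TMM) and -0.10 (DESeq) with let-7 and by -0.14 (DESeq) against WT. The number of cells, with 16 in WT, and the single chip per group limit these ratios, and depth limits shares of cells with a few counts.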
